A study of Mus musculus with 4 samples.

Results

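The 6 Iroquois homeobox genes of the mouse, Irx1 to Irx6, were examined in the frontonasal prominence (FNP), the embryonic tissue from which the nose and snout form. They were found by symbol, as 6 of the 33708 autosomal rows of the expression table. The FNPs came from 4 FVB/NJ embryos at E10.5, all at 29 somites, which the study compared to learn which transcripts differ in this tissue when SMCHD1, a chromatin protein that silences genes, carries the MommeD43 change. The 2 WT embryos were Smchd1+/+ (labelled 1 female and 1 male) and the 2 MD43 embryos were Smchd1 MommeD43/MommeD43 (labelled 2 males), homozygous for a missense allele made by chemical mutagenesis. A supplementary table of the study names WT replicate 2 female instead, and if that holds, sex and genotype cannot be told apart. Replicate 2 of each genotype came from the same mother, and each replicate 1 from another mother.

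Each genotype has 1 value per gene, the authors' mean of log2 RPKM over its 2 libraries. RPKM is a read count scaled to transcript length and library depth. No spread between embryos could be computed, so no difference below has a significance test. Multiplied together, the 2 libraries' read counts could be recovered from each value, and reads are given as the square root of that product, the geometric mean per library. Implied depth was 16055882 reads per library in WT and 22328791 in MD43. The error given with a difference covers read counting alone, as its least possible standard error (counting SE), and embryo-to-embryo variation comes on top of it. As the tissue was sequenced in bulk, fewer cells of a type and less RNA per cell cannot be told apart. Smchd1 itself was at 3.31 log2 RPKM in WT and 3.30 in MD43, which does not check the labels because the allele is a missense change. All 11 markers of frontonasal mesenchyme were present, summing to 174.2 RPKM in WT and 173.8 RPKM in MD43.

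Irx proteins are transcription factors of the TALE homeodomain class, in which 3 extra residues lengthen the DNA-binding homeodomain. In mammals the genes lie in 2 clusters that arose by duplication, and genes at matching places in the clusters are the closest relatives. The family is known for setting boundaries in the neural tube and for roles in heart, limb and retina, and variants of human IRX5 cause Hamamy syndrome, in which the eyes are set widely apart. Cluster A (Irx1, Irx2 and Irx4) spans 1312 kb of chromosome 13 (71957921 to 73269608, GRCm38), and cluster B (Irx3, Irx5 and Irx6) spans 882 kb of chromosome 8 (91798525 to 92680956).

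The paralogues resemble each other most in the homeobox, the coding stretch for the homeodomain, which bears on whether a read can be assigned to 1 gene. Over the 15 pairs of longest coding transcripts (GENCODE M21), the longest run of identical bases was 23 to 88 bases, and in every pair it lay in coding exons. The reads were 75 bases long. Only the run shared by Irx3 (chromosome 8, 91800491 to 91800578, minus strand) and Irx6 (chromosome 8, 92677342 to 92677429, plus strand) was longer than a read, and a read could start at 14 positions within it. The next longest, 65 bases, was shared by Irx2 (chromosome 13, 72630733 to 72630797, plus strand) and Irx5 (chromosome 8, 92359696 to 92359760, plus strand). Both runs are shown in coding direction to make this overlap visible. Capitals mark the bases that the longest run shared with Irx1 also holds, 30 in the first and 32 in the second.
Irx3 and Irx6: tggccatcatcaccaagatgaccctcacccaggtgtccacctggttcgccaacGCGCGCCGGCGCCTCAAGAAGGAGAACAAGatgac
Irx2 and Irx5: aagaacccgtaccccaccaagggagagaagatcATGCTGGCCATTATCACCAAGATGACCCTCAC
Apart from Irx3 and Irx6, a full-length read without mismatches could therefore match 1 of these transcripts only.

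Irx3 and Irx5 were the most abundant members in both genotypes, Irx1, Irx2 and Irx4 stood near 1 RPKM or lower, and Irx6 was barely detected. In WT the levels were 2.93 log2 RPKM for Irx3, 1.64 for Irx5, -0.03 for Irx2, -0.25 for Irx4, -0.27 for Irx1 and -5.76 for Irx6. Neighbours in this order from Irx3 to Irx2 differed by at least 1.29 ± 0.10 (counting SE), whereas Irx2 exceeded Irx4 by 0.21 ± 0.22 and Irx4 exceeded Irx1 by 0.03 ± 0.24, within counting error. In MD43 the 3 genes of cluster A were spread further apart and in another order. Irx4 was at -0.45 log2 RPKM, Irx2 at -0.94 and Irx1 at -1.85, so that Irx4 exceeded Irx1 by 1.40 ± 0.30. Irx3 was at 2.75 and Irx5 at 1.14. Irx3 made up 56.8% of the summed RPKM of the family in WT and 64.1% in MD43, and Irx1 made up 6.19% and 2.65%.

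**Figure D1:**
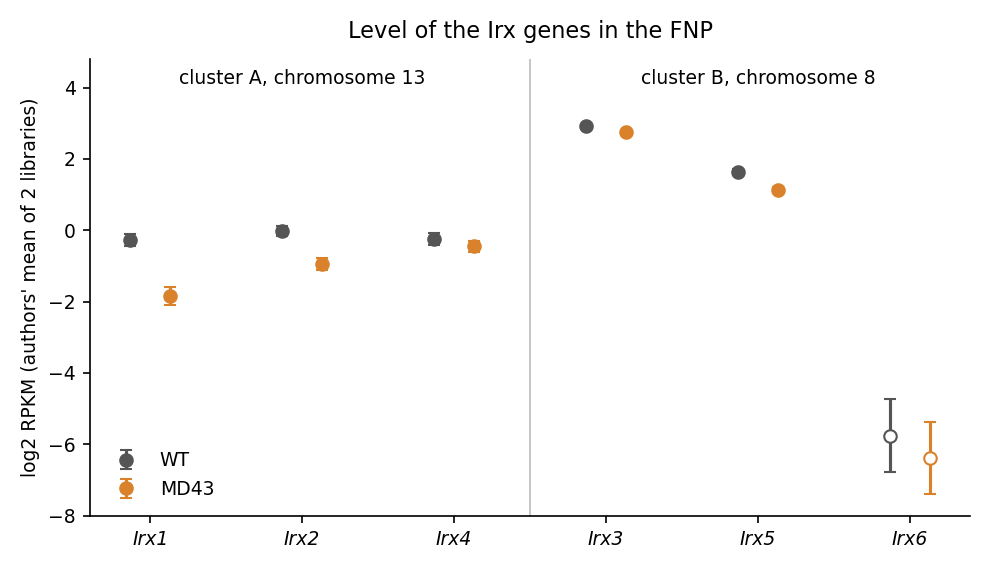
Level of each Irx gene in log2 RPKM (y axis) in WT (grey) and MD43 (orange), grouped by cluster (x axis). Points are the authors' means of 2 libraries, bars are the smallest counting SE, and open points (Irx6) rest on at most 1 read per library. The orange point lies below the grey one for each gene, by most for Irx1 (-1.85 in MD43 and -0.27 in WT) among the genes with filled points.

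In the comparison of MD43 with WT, the deposited value was lower in MD43 for all 5 members that passed the read filter (10 or more reads in WT, in MD43 or in both), as it was for 48.8% of the 15377 genes passing it. The size ranged from -1.58 for Irx1 to -0.18 for Irx3 on the log2 scale, beside a median of 0.0057 over those genes. Of the 5, 1 (Irx1) was at least 2-fold lower, against 2.47% of all genes, and 2 (Irx1 and Irx2) were at least 1.5-fold lower, against 6.43%. None was 2-fold higher or more, against 1.64%, and none 1.5-fold higher or more, against 4.24%. Large differences were more frequent at low depth. Among the 3870 genes with 10 to 100 reads on average, the range in which Irx1, Irx2 and Irx4 lie, 57% were lower, 17.1% by 1.5-fold or more and 6.23% by 2-fold or more. Among the 3905 genes with 100 to 500 reads, the range of Irx3 and Irx5, 55.7% were lower, 4.33% by 1.5-fold or more and 0.973% by 2-fold or more. Of the 12224 genes with a mean log2 RPKM of 0 or higher, as for Irx3 and Irx5, 0.663% were lower by 2-fold or more.

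**Figure D2:**
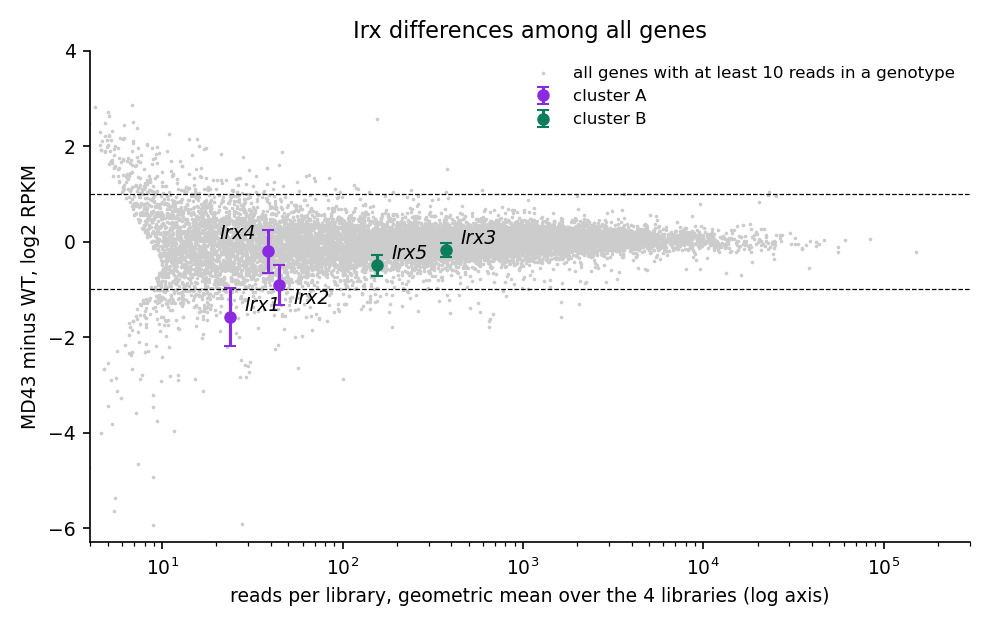
MD43 minus WT difference in log2 RPKM (y axis) against reads per library (x axis, log scale) for all genes that passed the read filter (light grey), with the Irx genes of cluster A (purple) and cluster B (green) and their 95% counting intervals. Dashed lines mark 2-fold. Irx1, at -1.58, lies beyond the lower line, Irx2, at -0.91, just inside it, and Irx3 and Irx5 within the band of other genes at their depth.

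Irx1 (ENSMUSG00000060969, chromosome 13, 71957921 to 71963723, minus strand), which is known from the midbrain, hindbrain, lung and head ectoderm, showed the largest difference of the 5. It was at 0.829 RPKM in WT and 0.278 RPKM in MD43, from 34.9 and 16.2 reads per library. The difference was -1.58 ± 0.31 on the log2 scale (counting SE), or 2.98-fold lower, with a 95% counting interval of -2.18 to -0.98. A difference at least this low was found in 1.24% of the genes with 10 to 100 reads.

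The recovered products also limit what the single libraries can hold. For Irx1 the product was 1216 in WT and 264 in MD43. With a ratio of at most 4 between the libraries, WT could be 32 and 38 reads or 19 and 64 reads, and MD43 could be 12 and 22 reads or 11 and 24 reads. With 32 and 38 reads in WT, both counts of each of these MD43 pairs were below either WT count, although the MD43 libraries were deeper on average. With 19 and 64 reads, the raw counts of the genotypes overlapped. When MD43 counts were scaled to the implied WT depth, a step added after the data were seen, the highest one in these splits was 15.8 or 17.3 reads. None of the 4 combinations of these splits overlapped. This depends on the limit of 4, since splits with a larger ratio were not compared and some of those would overlap. This scaling takes the libraries of a genotype as equally deep, since the depth of a single library is unknown. How many other genes at this depth have splits without overlap was not counted. Without the limit of 4 on the ratio, the products allowed 7 splits in WT and 8 in MD43. Which split is true, and which embryo held which count, cannot be told. To judge such ratios, genes were used whose product has just 1 split apart from 1 times itself. Between 20 and 100 reads, the larger count was a median of 1.67 times the smaller in WT (160 genes, 95th percentile 3.62) and 1.49 times in MD43 (153 genes, 95th percentile 2.81). Between 200 and 450 reads, where counting noise is smaller, the medians were 1.41 (66 genes) and 1.55 (47 genes). Unequal counts between the libraries of a genotype were thus usual in both. The equal depth taken for the scaling may therefore not hold, which leaves the scaled comparisons of every Irx gene uncertain.

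**Figure D3:**
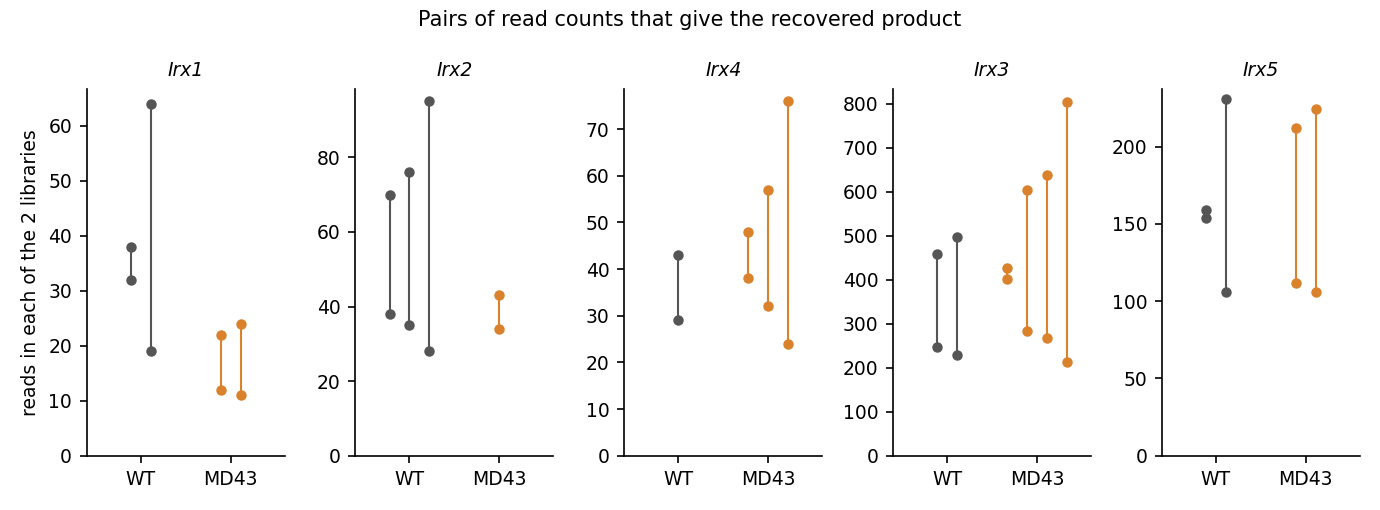
Pairs of whole read counts (y axis, reads per library, not scaled for depth) whose product equals the recovered product, for 5 Irx genes in WT (grey) and MD43 (orange). Each joined pair of points is 1 possible split with a ratio of at most 4. The true split is among those drawn only if its ratio is within this limit. For Irx1 the highest raw MD43 count drawn is 24 and the lowest WT count drawn is 19. For Irx4 each MD43 pair drawn overlaps the WT pair of 29 and 43.

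Irx2 (ENSMUSG00000001504, chromosome 13, 72628820 to 72634198, plus strand), the middle gene of the cluster and a relative of Irx5, was at 0.979 RPKM in WT and 0.522 RPKM in MD43. Reads per library were 51.6 and 38.2. Its difference was -0.91 ± 0.22 on the log2 scale, or 1.88-fold lower, with a 95% counting interval of -1.33 to -0.48. In MD43 the product of 1462 gave 34 and 43 reads as the only split with a ratio up to 4, whereas in WT 38 and 70, 35 and 76 or 28 and 95 were possible, so the raw counts of the genotypes overlapped in each case. Scaled to WT depth, MD43 came to 24.4 and 30.9 reads, which overlapped with 28 and 95 in WT and not with the other 2 splits. As for Irx1, the scaling takes equal depth within a genotype, and the share of other genes without overlap was not counted. Of the genes with 10 to 100 reads, 7.55% were at least this low.

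Irx4 (ENSMUSG00000021604, chromosome 13, 73260479 to 73269608, plus strand), known as the ventricular member of the family in the heart, differed by less than its counting error. It was at 0.844 RPKM in WT and 0.734 RPKM in MD43, a difference of -0.20 ± 0.23 with an interval of -0.66 to 0.25. With a ratio of at most 4, WT could be 29 and 43 reads alone. MD43 could be 38 and 48, 32 and 57 or 24 and 76, overlapping in all 3 combinations, raw and scaled to WT depth. Within cluster A, the difference of Irx1 minus that of Irx4 was -1.38 ± 0.38, and that of Irx2 minus that of Irx4 was -0.71 ± 0.32 (counting SE). Irx1 minus Irx2 gave -0.67 ± 0.38. These are gaps between genes of the same libraries and not between replicates.

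The sequences upstream of Irx2 and Irx4 were compared because these neighbours in 1 cluster had unequal differences and because Irx2 stands head to head with a non-coding gene. RefSeq promoter sequences (GRCm38.p6) matched 3 of the 6 members, Irx2, Irx3 and Irx4. The windows shown end before the annotated gene start (Irx2, chr13:72628570-72628819, and Irx4, chr13:73260247-73260478, both plus strand). Capitals mark GC boxes (GGGCGG) and CCAAT boxes (CCAAT), searched on both strands together with the TATA box (TATAAA). The motifs did not overlap each other.
Irx2: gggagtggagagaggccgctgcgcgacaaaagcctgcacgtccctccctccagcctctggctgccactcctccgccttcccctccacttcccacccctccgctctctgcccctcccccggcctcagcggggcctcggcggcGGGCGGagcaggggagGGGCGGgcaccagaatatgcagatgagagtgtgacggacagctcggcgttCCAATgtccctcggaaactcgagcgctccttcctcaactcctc
Irx4: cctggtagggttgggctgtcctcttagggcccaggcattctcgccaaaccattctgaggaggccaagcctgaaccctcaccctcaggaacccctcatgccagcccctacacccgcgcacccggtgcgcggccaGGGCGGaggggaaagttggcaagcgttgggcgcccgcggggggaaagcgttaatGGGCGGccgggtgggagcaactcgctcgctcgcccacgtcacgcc
The windows are 250 and 232 bases long. Each held 2 GC boxes, where 32.7% of 32817 promoter windows of 250 bases held at least 1, and no TATA box, which 12.4% held. A CCAAT box was present upstream of Irx2 alone and in 33.8% of all windows. Both were rich in G and C (68.4% for Irx2 and 68.1% for Irx4, against a median of 52.4%) and held 19 CG dinucleotides each, or 7.60 and 8.19 per 100 bases against a median of 2.40.

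Gm20554, a lincRNA on the opposite strand that starts 0.256 kb from Irx2, had few reads and was chosen after its values were seen. Its product in WT showed 1 library without reads and 1 with 16 reads. In MD43 the only split with a ratio up to 4 was 4 and 8 reads. The 2 WT embryos therefore differed from each other by more than the genotype means did, at 3.79 reads in WT and 5.66 in MD43.

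In cluster B, Irx3 (ENSMUSG00000031734, chromosome 8, 91798525 to 91802067, minus strand) was at 7.60 RPKM in WT and 6.71 RPKM in MD43, from 337 and 414 reads. Irx3 is known for the control of neural tube boundaries, in mutual repression with Olig2, and with Irx5 for limb and heart patterning. Its difference of -0.18 ± 0.07 was the smallest of the 5, with an interval of -0.33 to -0.03 for counting error alone. Of the genes with 100 to 500 reads, 29.1% were at least this low. With a ratio of at most 4, WT could be 248 and 458 or 229 and 496 reads. The 4 MD43 pairs within this limit ran from 402 and 426 to 213 and 804 reads. The counts of the genotypes overlapped in all 8 combinations, raw and scaled to WT depth.

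Irx5 (ENSMUSG00000031737, chromosome 8, 92357625 to 92376286, plus strand), the gene of Hamamy syndrome, was at 3.12 RPKM in WT and 2.21 RPKM in MD43. Reads per library were 156 in WT and 154 in MD43. The difference was -0.50 ± 0.12, or 1.41-fold lower, with a counting interval of -0.72 to -0.27, and 6.27% of the genes with 100 to 500 reads were at least this low. With a ratio of at most 4, WT could be 154 and 159 or 106 and 231 reads. MD43 could be 112 and 212 or 106 and 224, and the raw counts overlapped in all 4 combinations. Scaled to WT depth they overlapped in 3, the exception being 154 and 159 in WT with 112 and 212 in MD43. The scaling again takes equal depth within a genotype, and the share of other genes at this depth without overlap was not counted. The difference of Irx5 minus that of Irx3 was -0.32 ± 0.14.

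Irx6 (ENSMUSG00000031738, chromosome 8, 92674288 to 92680956, plus strand), known from the retina, had 1 read in each WT library and 0 in each MD43 library. Its WT value of -5.76 log2 RPKM thus rests on 1 read per library, its MD43 value of -6.39 is set by the number that stands for a library without reads, and no fold is given. A count of 0 allows up to 3 reads per library, or 0.040 RPKM at the MD43 depth, and 3 reads at the WT depth are 0.055 RPKM. Irx6 is the member that shares an 88-base run with Irx3, and how reads with several matches were counted is not given in the sources used here. Gm45505, on the opposite strand, overlaps the end of Irx6 and had no reads in any library.

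Read by cluster, the median difference was -0.91 for the 3 genes of cluster A and -0.34 for the 2 genes of cluster B that passed the filter. The summed RPKM of cluster A was 2.65 in WT and 1.53 in MD43, a log2 ratio of -0.79, and that of cluster B was 10.7 in WT and 8.93 in MD43, a log2 ratio of -0.27. Cluster A thus held 19.8% of the summed RPKM of the family in WT and 14.7% in MD43. With 3 and 2 genes and no replicate values, the difference between the clusters was not tested. Irx4 of cluster A and Irx3 of cluster B had nearly equal differences (-0.20 and -0.18).

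Genes beside the clusters were taken up to 1000 kb from the outer members, to see whether they had values lower in MD43 too. In cluster A, 32 other genes lay in this span, 13 had no reads in any library and 14 passed the filter. Of these, 5 were lower and 9 higher in MD43, where 48.8% of all genes past the filter were lower. The 14 had a median of 0.086, and none was past 2-fold. The median changed sign within 2000 kb (-0.034) and without the filter (-0.45). No gene before Irx1 or between Irx1 and Irx4 passed the filter. The nearest one, Ndufs6, a subunit of respiratory complex I located 50.2 kb after Irx4, differed by 0.09 ± 0.05. The 14 differences ran from -0.59 to 0.28.

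In cluster B, 62 other genes lay in the span, 34 had no reads and 14 passed the filter. Of these, 8 were lower and 6 higher, where 48.8% of all genes past the filter were lower. The 14 had a median of -0.081, and 1 was at least 2-fold higher, against 1.64% of all genes. Fto, an RNA demethylase gene whose introns hold enhancers of Irx3, ended 130 kb from Irx3 and differed by 0.07 ± 0.03. On the other side Mmp2, a matrix metalloprotease, began 146 kb from Irx6 and differed by 0.20 ± 0.06. The gene past 2-fold was Ces1d, a carboxylesterase 485 kb from Irx6, at -2.49 log2 RPKM in WT and -0.48 in MD43, from 6.78 and 37.9 reads. The 14 differences ran from -0.68 to 2.01.

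Inside cluster B, 2 non-coding genes passed the filter, Irx3os and Crnde, and they are described here although they were singled out after their values were seen. Irx3os overlaps Irx3 on the opposite strand and was at -0.09 log2 RPKM in WT and -0.33 in MD43, a difference of -0.24 ± 0.18 where Irx3 had -0.18. Crnde, which starts 1.505 kb from Irx5 and runs away from it, was at 0.92 log2 RPKM in WT and 0.50 in MD43, a difference of -0.42 ± 0.18 where Irx5 had -0.50. The libraries were stranded, but whether the counting used strand is not stated, so reads of Irx3 and Irx3os cannot be told apart. Crnde and Irx5 do not overlap. Outside the cluster, Gm45464, 682 kb from Irx3, was lower than both non-coding genes, at -0.68 ± 0.28.

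**Figure D4:**
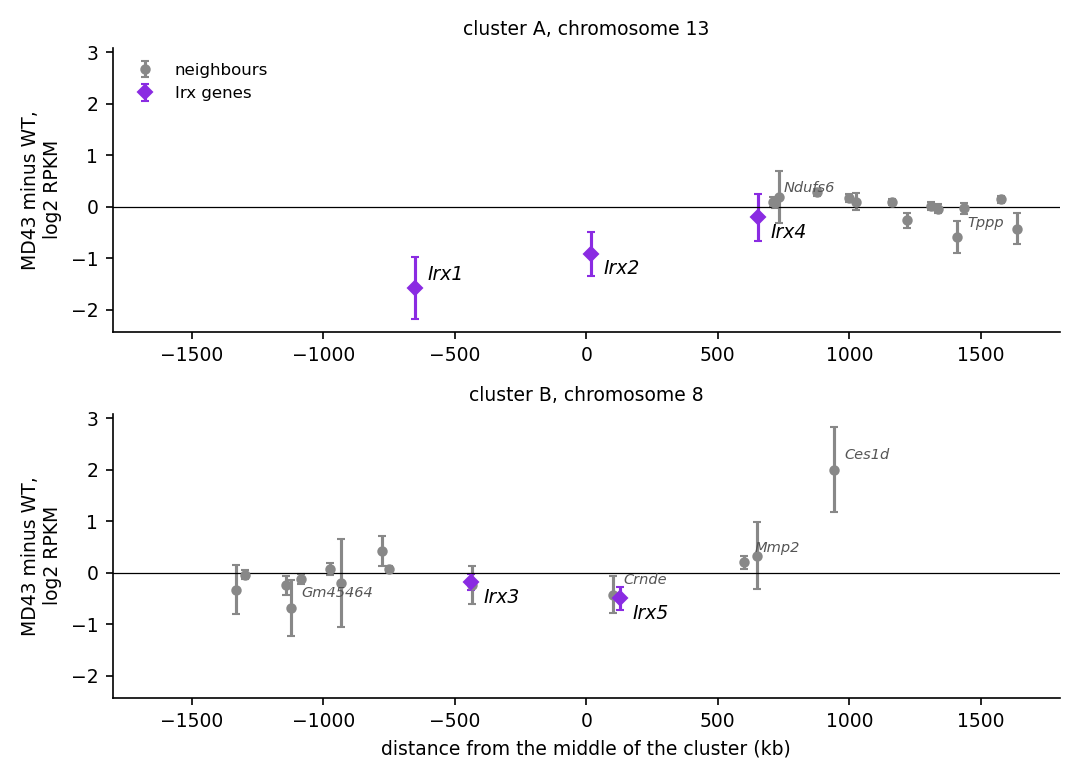
MD43 minus WT difference in log2 RPKM (y axis) of genes that passed the read filter against their distance from the middle of each Irx cluster in kb (x axis). Purple diamonds are Irx genes, grey points are their neighbours, and bars are 95% counting intervals. In cluster A, Irx1 (-1.58) and Irx2 (-0.91) stand in a stretch with no other gene passing the filter. The genes after Irx4 lie on both sides of 0, from -0.59 (Tppp) to 0.28. In cluster B, Crnde lies beside Irx5 and Ces1d (2.01) is the highest point.

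Other genes of the pathways in which Irx genes act were then set beside them. The lists below were chosen with earlier results of these data known, and their medians only describe them. IRX5 is known to act with the GATA-type zinc finger proteins TRPS1 and GATA3 and to restrain Cxcl12, the chemokine that guides cells carrying Cxcr4. None of these 4 genes was past 2-fold. The difference was -0.23 ± 0.05 for Trps1, 0.17 ± 0.12 for Gata3, -0.20 ± 0.05 for Cxcl12 and -0.02 ± 0.07 for Cxcr4, and their median was -0.11. The 12 other TALE homeobox genes (Meis, Pbx, Pknox and Tgif genes and Mkx) had a median of 0.0013, with 6 lower, 6 higher and none past 2-fold. Mkx, the nearest relative of the Irx family, was lowest among them at -0.31 ± 0.12, and Meis1 was highest at 0.25 ± 0.05.

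Genes of the ventral and intermediate neural tube, the territory where Irx3 sets a border, had a median of -0.47. Of the 8 of 9 listed that passed the filter, 7 were lower, 3 of them by at least 2-fold, and 1 was at least 2-fold higher. Of all genes past the filter, 48.8% were lower, 2.47% by at least 2-fold, and 1.64% were at least 2-fold higher. Olig2, the motor neuron progenitor factor and the partner of Irx3 in mutual repression, was at 428 reads in WT and 393 reads in the deeper MD43 libraries, a difference on the log2 RPKM scale of -0.60 ± 0.07. The values of Olig2 and Irx3 were thus both lower in MD43. Nkx6-1 (-3.96 ± 0.57), Nkx2-2 (-2.83 ± 0.32) and Dbx1 (-1.40 ± 0.15) were the lower ones past 2-fold, and Foxa2, the floor plate factor, was the higher one (1.74 ± 0.55, from 4.24 reads in WT and 19.8 in MD43).

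Irx1 and Irx2 are known in the brain from the territory behind the zona limitans, and a list of thalamus, pretectum and midbrain genes had a median of -0.44. That median was 0.0027 when genes whose mean log2 RPKM lay below 0 were left out, which kept only Tcf7l2 and Pax7, of opposite sign. Of the 6 of 9 listed that passed the filter, 5 were lower, 2 of them by at least 2-fold, against 48.8% and 2.47% of all genes. Barhl2 was at 2.30 log2 RPKM in WT and -3.61 in MD43, and Olig3 was at least 14.9-fold lower when its MD43 reads, 0 in both libraries, were set to 3 per library, which leaves the list's median as it is. Lhx9 (-0.51 ± 0.17), Tcf7l2 (-0.38 ± 0.06) and Pax7 (0.39 ± 0.06), which is also a gene of the frontonasal mesenchyme, were nearer to 0. The rostral forebrain list, from the territory in front of the Irx domain, had a median of -0.021 over 9 genes, with 5 lower and 4 higher. Rax alone was past 2-fold (-2.17 ± 0.24), Fezf1 was at -0.33 ± 0.05 and Six3 at -0.28 ± 0.05, and Emx2 (0.30 ± 0.04) and Lhx2 (0.49 ± 0.02) were higher.

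Levels of cell type markers differed between the genotypes along with the Irx genes. The 10 surface ectoderm markers had a median difference of 0.60, with 8 higher, and summed to 132.6 RPKM in WT and 200.1 RPKM in MD43. The 5 red blood cell markers measured had a median of 0.84 and summed to 3057 RPKM and 5814 RPKM. All 5 were higher, 2 of them (Hbb-bh1 and Slc4a1) by at least 2-fold, against 1.64% of all genes past the filter. The 7 nasal placode markers past the filter had a median of 0.19 and all were higher. The 6 neural progenitor markers measured had a median of -0.23, with 5 lower, and summed to 289.6 RPKM and 247.7 RPKM. Medians were 0.0078 for frontonasal mesenchyme, -0.052 for young neurons and -0.058 for endothelium. Of the markers measured, Foxi3 of the nasal placode list stayed below the filter and none was at 0 in both genotypes. The part of tissue content in the Irx values was not tested.

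**Figure D5:**
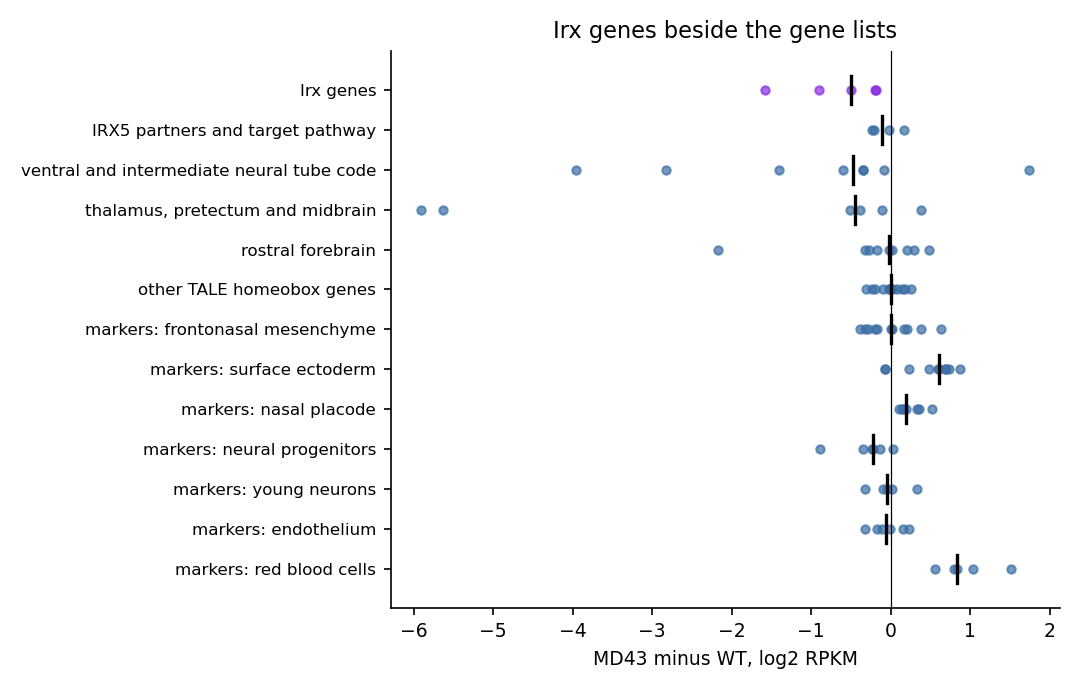
MD43 minus WT difference in log2 RPKM (x axis) of each gene that passed the read filter, for the Irx genes (purple) and each gene list (blue). Black bars are medians. The 5 Irx genes all lie below 0, the neural tube and thalamus lists reach far below them (to -5.91 for Barhl2), and the surface ectoderm and red blood cell markers lie mostly above 0.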

How the data were processed

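Stranded poly(A) libraries from 100 ng of RNA were trimmed by the authors with Trim Galore 0.4.4, mapped with HISAT2 2.0.5 to GRCm38.p6 and quantified in SeqMonk. The deposited values are log2 RPKM, merged by the authors into 1 column per genotype over 19 autosomes. The table also holds the FDR, fold change and mean of the authors' own comparison, which were not used.

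The table was joined to GENCODE M21 on symbol and position (33101 of 33708 rows). Genes without reads share 1 constant once exon length is added. With such a library taken as 0.9 reads, each value gives the product of the read counts of 2 libraries. Of the products under 1000, 99.9% were whole, 0.9 times whole or 0.81 (tolerance 0.01) in both genotypes. The recovery was also run on data simulated with the same 0.9 and the same exon lengths, so that run cannot test these settings. Products of the 5 detected Irx genes were whole within 0.05. Intervals cover counting error alone.

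The read filter kept genes with 10 or more reads in WT, in MD43 or in both. No test was run, since no values per library exist in the columns used. The members and lists were chosen with earlier results of these data known. Named genes were the Irx genes, neighbours past 2-fold or nearest to a cluster end, up to 5 list members with the largest differences, and Smchd1. Neighbours at an end of the range of differences were named after the data were seen. Alternatives were pseudocounts, centring, a GC content and length trend, filters, windows and a 1.5-fold limit. Read ranges, splits of products and their scaling to WT depth were added after the data were seen. Sox3, Dcx, Alas2 and Ahsp were not analysed here. Analyses used Python 3.11.15, pandas 2.3.3 and sympy.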

Additional observations from a re-analysis of the deposited data

How the results depend on the processing

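With a pseudocount of 1 RPKM, which exceeds the level of cluster A genes, the difference was -0.52 for Irx1, -0.38 for Irx2 and -0.38 for the cluster A median. Other members stayed within their counting interval, and each member kept its sign under the 4 alternatives run on it, which a pseudocount cannot change. Counted at 1.5-fold, 2 members were lower, and when the mean log2 RPKM had to be 0 or higher the count was 0, as Irx3 and Irx5 alone were left. Without a filter the medians were -0.50 for cluster B, -0.45 for the neighbours of cluster A and -0.48 for those of cluster B. Adding Irx6 makes Irx5 the middle gene of cluster B, and many of the added neighbours have no reads, so that their value follows depth. The neighbour median was -0.034 within 2000 kb of cluster A and 0.080 within 500 kb of cluster B. The thalamus, pretectum and midbrain median was 0.0027 when the mean log2 RPKM had to be 0 or higher. Only Tcf7l2 (-0.38) and Pax7 (0.39) then remained. No paired analysis was possible because the columns used are merged over the replicates, and for the same reason no library could be left out. Depth limits Irx6, and Irx1 rests on 16.2 reads in MD43.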
